A study of Mus musculus with 14 samples.

Results

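The m6A erasers and readers are the proteins that remove N6-methyladenosine (m6A) from RNA and those that bind it. The 10 genes described here were fixed by name: the erasers Fto and Alkbh5, the YTH-domain readers Ythdf1, Ythdf2, Ythdf3, Ythdc1 and Ythdc2, and the further readers Hnrnpa2b1, Fmr1 and Prrc2a. They are 10 of 31507 genes in the expression table, and all 10 were among the 13666 genes that passed the filter of a mean of at least 1 FPKM. They were measured in mouse brain tissue by m6A sequencing: poly(A) RNA is fragmented, fragments bound by an m6A antibody (the IP) are sequenced, and so are fragments without that selection (the input). Sham-operated mice gave 3 IP and 3 input libraries. Mice with an intracerebral haemorrhage (ICH) and no acupuncture gave 2 of each kind, as did mice with a haemorrhage treated by acupuncture at the point GV20 on 7 consecutive days. Strain, age, the way the haemorrhage was made and the brain region are not stated in the labels, and nothing says that replicates were separate animals, so p-values measure the spread between these samples.

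m6A is laid down on nascent mRNA by a methyltransferase complex around Mettl3 and Mettl14 and lies mostly near stop codons and in 3′ UTRs, within short GGAC-like contexts. Fto and Alkbh5 are iron- and oxoglutarate-dependent dioxygenases of the AlkB family that oxidise the methyl group away. The YTH domain holds the methylated base in an aromatic cage: the cytoplasmic Ythdf proteins link marked mRNA to decay and translation, the nuclear Ythdc1 acts in splicing and export, and Ythdc2 is an RNA helicase best known from meiosis. In the brain, m6A and its readers are known for roles in axon growth, synaptic translation, learning and myelination.

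The labelled tissue was checked against cell type markers in the input libraries. The 5 neuron markers were above 0 in all 7 libraries, with a summed level of 553 to 852 FPKM. The 6 markers of microglia and macrophages, all above 0 in every library, summed to 78.0 to 97.2 FPKM in sham, 290 to 377 FPKM in ICH and 428 to 429 FPKM in acupuncture. The 6 markers of striatal neurons, also all above 0, summed to 251 to 273 FPKM in sham and to 78.5 to 145 FPKM in the 4 haemorrhage libraries. The 4 choroid plexus markers summed to 1.64 FPKM in acupuncture replicate 2 and to 333 to 483 FPKM elsewhere. The part of these cell types in the values below was not tested, and in bulk tissue fewer cells of a type and less RNA per cell cannot be told apart. ICH replicate 2 stood apart from the other libraries: it was the highest or the lowest of the 7 for 60.6% of all tested genes. Acupuncture replicate 1 was so for 35.8%, and every other library for 12.7% to 29.4%.

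All 10 genes were expressed in every input library, from 2.18 FPKM for Ythdc2 to 73.5 FPKM for Hnrnpa2b1. FPKM is scaled to gene length, so levels can be set side by side. The mean over the 7 libraries was 64.4 FPKM for Hnrnpa2b1, 45.9 FPKM for Prrc2a, 13.5 FPKM for both Ythdf1 and Ythdf3 and 10.4 FPKM for Fto. It was 8.12 FPKM for Alkbh5, 6.88 FPKM for Fmr1, 6.19 FPKM for Ythdf2, 5.07 FPKM for Ythdc1 and 3.26 FPKM for Ythdc2. In that order the ranges of neighbouring genes over the 7 libraries overlapped, except between Prrc2a and Ythdf1, between Ythdf3 and Fto, and between Ythdc1 (lowest 4.531 FPKM) and Ythdc2 (highest 4.529 FPKM). The first and second place overlapped through ICH replicate 2 alone, where Hnrnpa2b1 was at 36.7 FPKM and Prrc2a at 53.0 FPKM.

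No eraser or reader passed the test in any comparison of input RNA. Of the 10 genes, 0 had a limma adjusted p under 0.05 in ICH against sham, where 5.68% of all tested genes did, and 0 in acupuncture against ICH, where 0.0366% did. In acupuncture against sham 0 passed beside 11.7% of all genes, and in both haemorrhage groups joined (4 libraries) against sham 0 passed beside 8.22%. Of the 1598 genes behind that 11.7%, 1158 were higher with acupuncture, but 923 of 1644 were after quantile normalization and 1001 of 1749 after scaling to equal medians. Groups without overlap were counted for 2 of the 10 genes in ICH against sham (Ythdf2 and Ythdf3), beside 40.3% of all genes, and for 5 in acupuncture against ICH (Fto, Ythdf1, Ythdf3, Ythdc2 and Prrc2a), beside 49.5%. They were counted for 5 in acupuncture against sham (Fto, Ythdf2, Ythdc2, Hnrnpa2b1 and Prrc2a), beside 55.2%. In both haemorrhage groups against sham they were counted for Ythdf2 alone, beside 23.5% of all genes. At an unadjusted p under 0.05 in limma there were 0, 1, 1 and 1 of the 10 genes in these comparisons, beside 21.5%, 20.2%, 25.5% and 20.5% of all genes. The median size of the log2 fold change, regardless of sign, was 0.17 over the 10 genes in ICH against sham, beside 0.19 over all tested genes. In acupuncture against ICH these medians were 0.19 and 0.21, and in acupuncture against sham 0.10 and 0.18. The 95% intervals of the fold changes reached from -0.97 to 0.54 in ICH against sham, with the lower bound for Hnrnpa2b1 and the upper bound for Ythdc2, so a p that missed the threshold does not show that levels were equal.

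**Figure D1:**
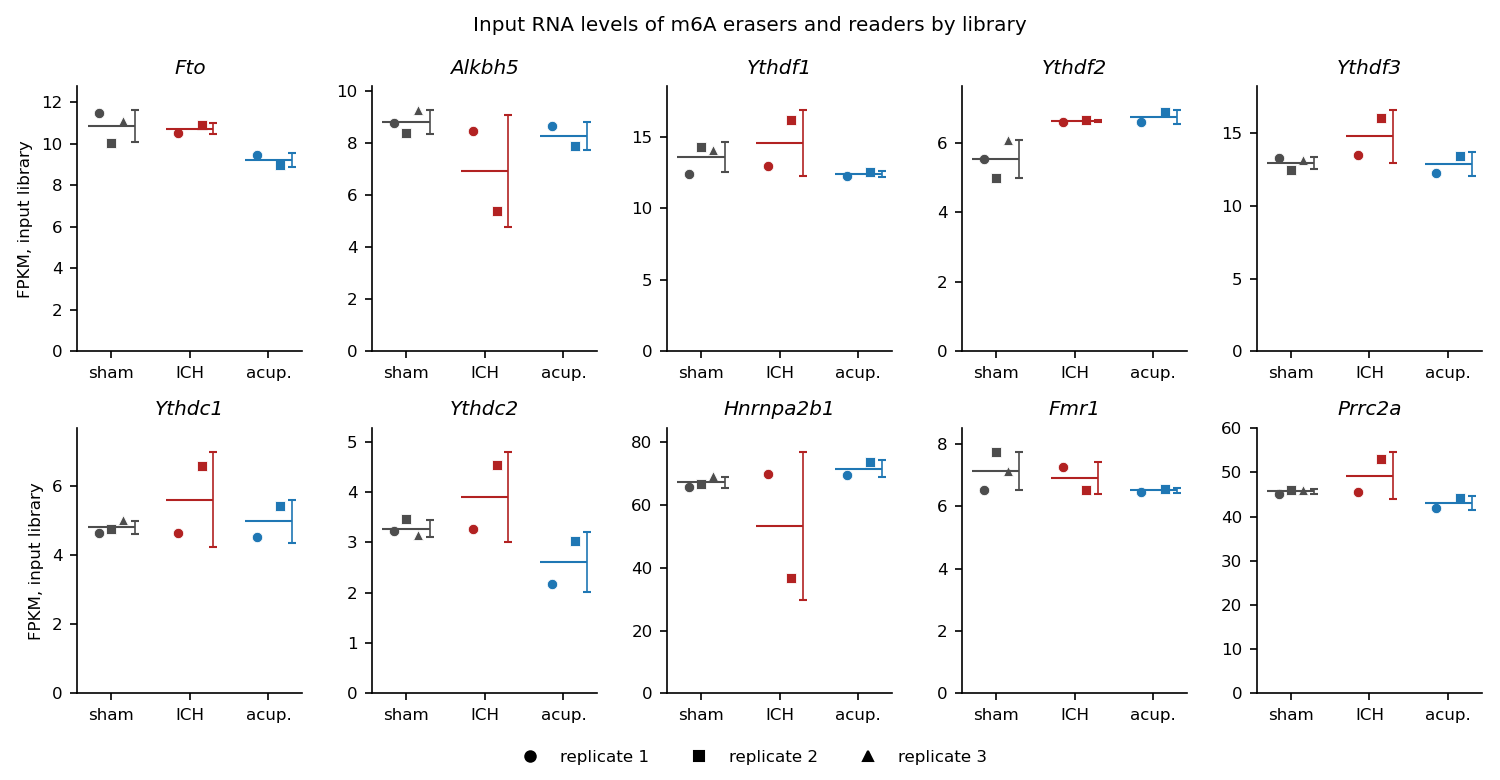
Input RNA level (FPKM, linear axis from 0) of the 10 genes in each of the 7 libraries; symbols mark the replicate number, the horizontal line is the group mean and the bar its SD. ICH replicate 2 (red square) lies below all other libraries for Alkbh5 (5.40 FPKM) and Hnrnpa2b1 (36.7 FPKM) and above them for Ythdf1, Ythdf3, Ythdc1, Ythdc2 and Prrc2a.

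Among the input libraries ICH replicate 2 was the extreme library for 7 of the 10 genes, beside 60.6% of all tested genes. It was the lowest for Alkbh5 and Hnrnpa2b1 and the highest for Ythdf1, Ythdf3, Ythdc1, Ythdc2 and Prrc2a. Acupuncture replicate 1 was the extreme library for 6 of the 10 genes, beside 35.8% of all tested genes. It was the lowest in each of the 6 (Ythdf1, Ythdf3, Ythdc1, Ythdc2, Fmr1 and Prrc2a), and in 15.6% of all tested genes. The level of ICH replicate 2 over the median of the other 6 libraries was 0.530 for Hnrnpa2b1 and 0.631 for Alkbh5, and 1.42 for Ythdc2 and 1.40 for Ythdc1. In this library the log2 level relative to ICH replicate 1 moved with the genomic span of the gene over all tested genes: the median difference was -0.16 for the 3417 genes with the shortest spans and 0.11 for the 3417 with the longest. In order of span, the difference was -0.91 for Hnrnpa2b1 (8963 bp), 0.22 for Prrc2a (15822 bp) and 0.30 for Ythdf1 (16573 bp). It was -0.56 for Alkbh5 (22132 bp), 0.008 for Ythdf2 (27392 bp), 0.43 for Ythdc1 (32439 bp) and 0.23 for Ythdf3 (33826 bp). For the longer genes it was -0.13 for Fmr1 (39423 bp), 0.38 for Ythdc2 (61979 bp) and 0.05 for Fto (354915 bp). The part of gene span in these differences was not tested. Without ICH replicate 2, no member had a log2 fold change outside -0.06 to 0.06 in ICH against sham, except Ythdf2 at 0.22. Without ICH replicate 1, so that replicate 2 alone stood for ICH and was assumed to vary like the other groups, 4 members passed in ICH against sham (limma adjusted p of 0.00108 for Hnrnpa2b1, 0.00518 for Alkbh5, 0.0383 for Ythdc1 and 0.0410 for Ythdf3) and 6 in acupuncture against ICH. In that setting 5204 and 5098 of all 13679 tested genes passed as well.

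**Figure D2:**
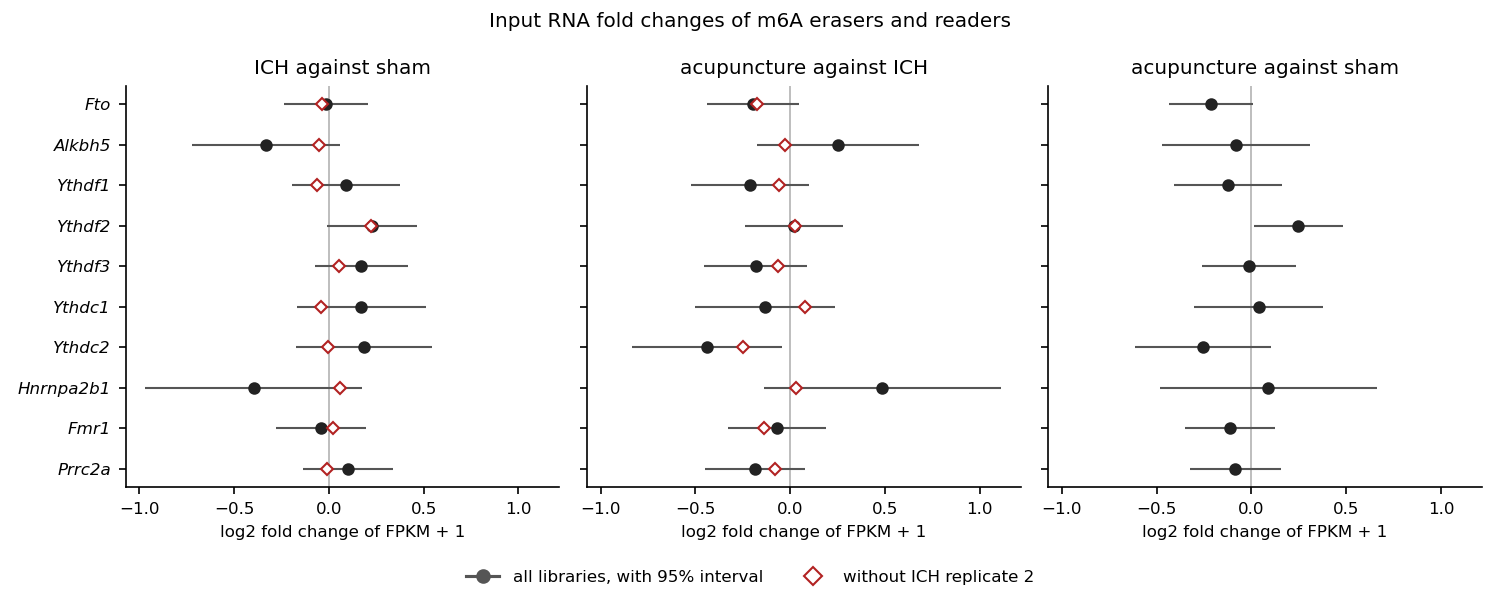
Log2 fold change of FPKM + 1 for each gene in 3 comparisons. Black points with bars are the estimate and its 95% interval from limma over all 7 libraries. Open red diamonds are the estimate without ICH replicate 2, drawn only in the comparisons that involve ICH. For Hnrnpa2b1 in ICH against sham the estimate was -0.40 with all libraries and 0.06 without that library, and for Alkbh5 -0.33 and -0.05.

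m6A peaks were deposited as 1 list per group, so a peak has the authors' value but no error between replicates. The expression table also holds an ICH and an EA input column headed as replicate 3, which match no sample used here, and whether those libraries entered the ICH and acupuncture peak values is not stated. Positions are on the mouse build GRCm38, and a peak's borders can span introns. The height of a peak is the authors' log2 ratio of IP over input. The 3 lists held 135 peaks of the 10 genes: 42 in sham, 50 in ICH and 43 in acupuncture. The whole lists held 48251, 54754 and 50105 peaks in the same order, so the ICH list was the longest over all genes as well. Every member had at least 1 peak in every list, as did 93.6%, 94.3% and 94% of all tested genes. The members had a median of 4, 4.5 and 4 peaks per gene, beside 3 in each list over all genes with a peak. Of the members' peaks the authors annotated 21, 24 and 23 as 3′ UTR, 14, 20 and 14 as exonic, 4, 3 and 4 as 5′ UTR and 3, 3 and 2 as intronic. The 3′ UTR share was 50%, 48% and 53.5%, beside 54.5%, 52.3% and 54.7% of all peaks in the lists. The exonic share was 33.3%, 40% and 32.6%, beside 20.1%, 21.8% and 20.4%. The 5′ UTR share was 9.5%, 6% and 9.3%, beside 11.6%, 12.1% and 11.2%. The intronic share was 7.1%, 6% and 4.7%, beside 4.6%, 5.3% and 5.0%. Merged where they shared at least 1 bp, the 135 peaks formed 52 regions, of which 29 were in all 3 lists, 6 in 2 lists and 17 in 1 list. Of those 17, 9 were in the ICH list, 4 in the sham list and 4 in the acupuncture list. Regions were not merged over all peaks, so these counts are no result about the members.

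**Figure D3:**
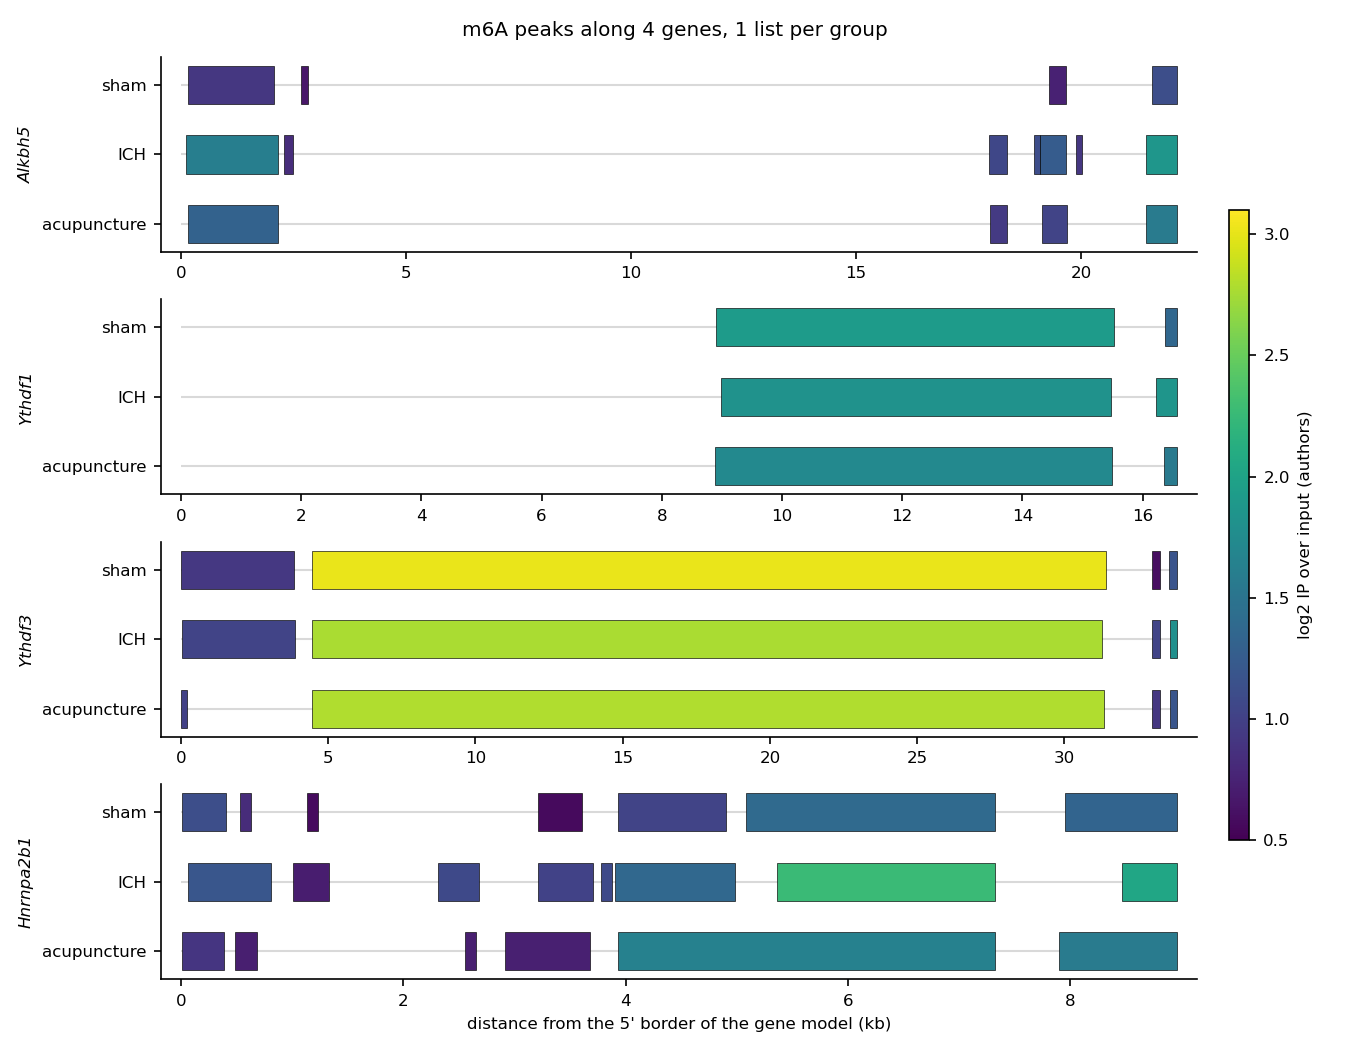
The authors' m6A peaks along 4 genes, drawn to scale from the 5′ border of the gene model (kb), with 1 row per group's peak list; colour gives the log2 IP over input. Ythdf3 carries a long peak near 3 in each list, Alkbh5 and Hnrnpa2b1 have higher values in the ICH row, and the short Ythdf1 peak at the 3′ end goes from 1.36 in sham to 1.85 in ICH and 1.56 in acupuncture.

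Neither eraser passed the test in input RNA, and the authors' deposited tables listed differential m6A peaks for both. Fto (ENSMUSG00000055932, chr8:91313525-91668439), the larger gene, encodes a demethylase of m6A and of the cap-adjacent m6Am. Fto had 11.5, 10.01 and 11.1 FPKM in sham, 10.5 and 10.9 FPKM in ICH and 9.46 and 8.98 FPKM in acupuncture. The acupuncture libraries were the lowest of the 7, and the sham and ICH libraries overlapped. The log2 fold change of Fto was -0.21 in acupuncture against sham (SE 0.0932, limma adjusted p = 0.211) and -0.20 in acupuncture against ICH (SE 0.102, limma adjusted p = 0.295). Neither passed. The 3 tested genes with the pattern most like that of Fto across the 7 libraries, by root mean square difference of centred log2 values, were Smyd3 (0.0193), Grb14 (0.0276) and Wasf3 (0.0332), beside a median of 0.219 over all tested genes. A gene with the same level in all libraries would lie at 0.108 from Fto.

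Alkbh5 (ENSMUSG00000042650, chr11:60536381-60558512) encodes the nuclear m6A demethylase. It had 8.79, 8.38 and 9.27 FPKM in sham, 8.46 and 5.40 FPKM in ICH and 8.65 and 7.91 FPKM in acupuncture. ICH replicate 2 lay below every other library, and the other 6 lay within 1.17-fold of each other. The log2 fold change in ICH against sham was -0.33 (SE 0.165, limma adjusted p = 0.285), which did not pass. The most similar patterns were those of Chmp7 (0.0229), Hacd3 (0.0262) and Phf1 (0.0320), beside a median of 0.268 over all tested genes. These genes were picked on all 7 libraries, so that they too were lowest in ICH replicate 2 follows from the choice. A gene with the same level in all libraries would lie at 0.211 from Alkbh5.

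The start of Alkbh5, as RefSeq places it, lay between the outer borders of a peak of all 3 lists. RefSeq start windows of 300 bases (GRCm38.p6) were at hand for 8 of the 10 genes. Those of Alkbh5 and Ythdc1 lay between the borders of such a peak over all 300 bases. For Ythdc1 that peak ran over 48330 bp between borders in sham, chr5:86768402-86816731, and so began well before the gene model. The motif GGACA, or the same letters ending in C or T, was searched, since these are common methylation contexts. Only the strand that reads like the RNA was searched, since the mark is on RNA. It occurs at least once in 60.2% of all 32851 such windows, and the Ythdc1 window held none. The Alkbh5 window held 1 match, shown here in capitals within 30 bases of the plus strand at chr11:60537666-60537695. It is shown because no other match in a member's start window lies wholly between the borders of a peak of all 3 lists. Those borders can span introns, and whether the match lies in a spliced-out part was not examined. The rest of that peak was not searched:
Alkbh5: cggtcacggggcGGACTgggttgtggcgat
The match begins 5 bases before the RefSeq start and inside the gene model of the deposited files, which starts further upstream. A match describes the letters and does not show a methylated site.

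In the peak lists the 5′ peak of Alkbh5, whose borders enclose that match, had a log2 IP over input of 0.91 in sham, 1.60 in ICH and 1.31 in acupuncture. Its peak at the 3′ end of the gene had 1.12, 1.87 and 1.57. For ICH against sham Alkbh5 had 4 peaks in the authors' deposited table and all were higher in ICH, by 0.76 at the 5′ UTR (authors' adjusted p 0.00049), by 0.69 and 0.62 within the 3′ UTR and by 0.92 at the 3′ end (authors' adjusted p 1.32e-09). The matching 4 peaks were also higher in acupuncture than in sham in the authors' deposited table, by 0.55, 0.46, 0.47 and 0.64, each at an authors' adjusted p under 0.05. All 4 had sham values under 1 in both tables, and of all peaks with such a value 96.8% were higher in ICH and 83.6% in acupuncture in the authors' deposited tables, so their direction is no result about Alkbh5. No Alkbh5 peak was listed in the authors' deposited table of acupuncture against ICH.

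Fto had its strongest peak in an exonic region of 50565 bp between borders, chr8:91391423-91441987, at 1.71 in sham, 2.21 in ICH and 1.92 in acupuncture. This peak was higher in the authors' deposited table by 0.46 in ICH than in sham, at a difference of -0.26 in acupuncture against ICH, and higher by 0.19 in acupuncture than in sham. The short Fto peak near the 3′ end was higher by 0.52 in ICH than in sham and differed by -0.35 between acupuncture and ICH in the authors' deposited table. Another Fto peak, in the 3′ UTR, over 35355 bp between borders, was higher by 0.47 in ICH than in sham (authors' deposited table, adjusted p 0.0228).

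The 3 Ythdf readers did not pass the test in input RNA, and each carried 1 long peak in every list. Ythdf1 (ENSMUSG00000038848, chr2:180904377-180920949), known for promoting translation of marked mRNA, had 12.4, 14.3 and 14.0 FPKM in sham, 12.9 and 16.2 FPKM in ICH and 12.2 and 12.5 FPKM in acupuncture. Ythdf3 (ENSMUSG00000047213, chr3:16183212-16217037), which acts with the other 2, had 13.3, 12.5 and 13.1 FPKM in sham, 13.5 and 16.1 FPKM in ICH and 12.3 and 13.5 FPKM in acupuncture. For both genes ICH replicate 2 was the highest library, and the other libraries of the 3 groups lay close together. The log2 fold changes in ICH against sham were 0.09 for Ythdf1 (SE 0.120, limma adjusted p = 0.665) and 0.17 for Ythdf3 (SE 0.104, limma adjusted p = 0.360), and neither passed.

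Ythdf2 (ENSMUSG00000040025, chr4:132184912-132212303), which recruits the deadenylase complex to marked mRNA, came closest of the 10 genes to a difference between haemorrhage and sham. It had 5.53, 4.98 and 6.08 FPKM in sham, 6.61 and 6.65 FPKM in ICH and 6.59 and 6.88 FPKM in acupuncture. All 4 haemorrhage libraries lay above all 3 sham libraries, a separation that 23.5% of all tested genes showed in either direction. The log2 fold change was 0.24 in both haemorrhage groups against sham (SE 0.0851, limma adjusted p = 0.160), and an exact two-sided permutation test over the 7 libraries gave p = 0.0571, the smallest that 35 splits allow. It was 0.23 in ICH against sham (limma adjusted p = 0.242) and 0.25 in acupuncture against sham (limma adjusted p = 0.177). Leaving out each library in turn gave 0.18 to 0.30 for both haemorrhage groups against sham, with a lowest adjusted p of 0.0855 in limma, so the difference did not pass in any of these fits. The summed level of the microglia and macrophage markers also separated these groups, at 78.0 to 97.2 FPKM in sham and 290 to 429 FPKM in the 4 haemorrhage libraries. Its part in the Ythdf2 values was not tested.

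The long peak of each Ythdf gene ended in its 3′ UTR. It was the strongest peak of its gene in every list, except for Ythdf1 in ICH, where the short peak at the 3′ end had 1.85 and the long one 1.83. The number of peaks differed between the genes: Ythdf1 had 2 in each list and Ythdf3 had 4, while Ythdf2 had 3 in sham, 1 in ICH and 2 in acupuncture. In the peak lists the long Ythdf3 peak, chr3:16187656-16214624 in sham, had 3.01 in sham, 2.77 in ICH and 2.79 in acupuncture. The long Ythdf2 peak, chr4:132185862-132205620 in sham, had 2.78, 2.70 and 2.64. The long Ythdf1 peak had 1.92, 1.83 and 1.72. In the authors' deposited table of ICH against sham these were 3 of the 4 member peaks that were lower in ICH, with differences of -0.35 for Ythdf1 (from 1.97 to 1.62, authors' adjusted p 4.18e-08), -0.26 for Ythdf2 (from 2.80 to 2.54, authors' adjusted p 2.72e-05) and -0.36 for Ythdf3 (from 2.99 to 2.64, authors' adjusted p 1.67e-15). In acupuncture against sham the authors' deposited table gave differences at the long peaks of -0.26 for Ythdf1, -0.19 for Ythdf2 and -0.23 for Ythdf3, all with an authors' adjusted p under 0.05. These comparisons share the sham samples. Of all peaks with a sham value of at least 2 in the authors' deposited tables, 37.4% were higher in ICH and 20.2% in acupuncture. The direction of the long Ythdf2 and Ythdf3 peaks was thus that of most such peaks. At a sham value of 1 to 2, where the long Ythdf1 peak lay, 71.4% were higher in ICH and 43.2% in acupuncture. The input estimates of Ythdf1, Ythdf2 and Ythdf3, none of which passed, were 0.09, 0.23 and 0.17 in ICH against sham, and -0.06, 0.22 and 0.05 without ICH replicate 2. In acupuncture against sham they were -0.12, 0.25 and -0.01. Whether the input level enters the ratio at these peaks was not tested.

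The short peaks at the 3′ ends of Ythdf1 and Ythdf3 went the other way from the long ones. The Ythdf1 peak at the 3′ end, 250 bp long, was 0.65 higher in ICH than in sham in the authors' deposited table (1.83 against 1.18). The Ythdf3 peak at the 3′ end was also 0.65 higher in ICH in the authors' deposited table (1.73 against 1.08), and a second short 3′ UTR peak was 0.55 higher. In acupuncture against ICH, the authors' deposited table gave differences of -0.35 for the Ythdf1 peak at the 3′ end and of -0.65 and -0.38 for the 2 short Ythdf3 peaks. Of all peaks at a 3′ end in the authors' deposited tables, 85.2% were higher in ICH than in sham and 9.4% higher in acupuncture than in ICH. The second short Ythdf3 peak had a sham value under 1, where 96.8% of all peaks were higher in ICH. The direction of the short peaks is thus no result about Ythdf1 or Ythdf3. The long Ythdf3 peak, at 0.16, was the only member peak with a higher value in acupuncture than in ICH in the authors' deposited table (2.82 against 2.67, adjusted p 0.00247). No Ythdf2 peak was listed in that table.

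The nuclear reader Ythdc1 carried the strongest peak of all members and 1 of the few that were lower in ICH. Ythdc1 (ENSMUSG00000035851, chr5:86804221-86836659) had 4.64, 4.75 and 5.00 FPKM in sham, 4.63 and 6.57 FPKM in ICH and 4.53 and 5.40 FPKM in acupuncture. ICH replicate 2 was the highest library and ICH replicate 1 lay with sham, so the groups overlapped. Ythdc1 had a log2 fold change of 0.17 in ICH against sham (SE 0.143, limma adjusted p = 0.486). Its exonic peak at chr5:86826563-86830055 had a log2 IP over input of 3.11 in sham, 3.00 in ICH and 3.11 in acupuncture, higher than 95.0% to 96.1% of all peaks in those lists. It was in none of the 3 differential tables. At the 3′ end, the Ythdc1 peak was lower than in sham in both other groups in the authors' deposited tables, with differences of -0.27 in ICH (0.91 against 1.18, adjusted p 0.0378) and -0.35 in acupuncture. At the 5′ end, the peak over the first 2344 bp of the gene was 0.57 higher in ICH than in sham in the authors' deposited table (1.68 against 1.11, adjusted p 0.0394), and the exonic peak after it was 0.30 higher (adjusted p 0.0493). Within the 3′ UTR another Ythdc1 peak differed by -0.26 in acupuncture against sham in the authors' deposited table (adjusted p 0.00231). None of the 3 Ythdc1 peaks in the authors' deposited table of acupuncture against ICH had an adjusted p under 0.05, and the smallest p was at the 5′ end, with a difference of -0.53 (adjusted p 0.0852).

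Ythdc2 (ENSMUSG00000034653, chromosome 18), the helicase reader, had the lowest levels of the 10 genes. It had 3.22, 3.46 and 3.15 FPKM in sham, 3.26 and 4.53 FPKM in ICH and 2.18 and 3.03 FPKM in acupuncture. Both acupuncture libraries lay below all other libraries. The log2 fold change in acupuncture against ICH was -0.44 (SE 0.166, limma adjusted p = 0.229), the largest estimate below 0 of any member in any comparison, and it did not pass. Without ICH replicate 2 it was -0.25. A short Ythdc2 peak at the 3′ end was in the sham and acupuncture lists, at 1.06 and 2.09, but not in the ICH list. It was in the authors' deposited table as 1.06 higher in acupuncture than in sham, with an adjusted p of 0.0585. Another 3′ UTR peak of Ythdc2 was 0.57 higher in ICH than in sham in the authors' deposited table (1.33 against 0.76, adjusted p 0.00719) and differed by -0.44 in acupuncture against ICH (adjusted p 0.0676).

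The further readers lack a YTH domain. Hnrnpa2b1 (ENSMUSG00000004980, chr6:51460932-51469894), a nuclear ribonucleoprotein that binds transcripts with m6A and sorts RNA in neurons and oligodendrocytes, had 65.6, 66.6 and 69.1 FPKM in sham, 69.9 and 36.7 FPKM in ICH and 69.5 and 73.5 FPKM in acupuncture. ICH replicate 2 lay far below the other 6 libraries, which were within 1.12-fold of each other. Its log2 fold change in ICH against sham was -0.40 (SE 0.241, limma adjusted p = 0.359), and without ICH replicate 2 it was 0.06.

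Hnrnpa2b1 had the most listed peaks of the 10 genes in the differential tables of ICH against sham and of acupuncture against ICH, while Alkbh5 had the most, 4, in that of acupuncture against sham. For ICH against sham the authors' deposited table held 6, all higher in ICH, from 0.47 to 0.87, of which 4 had an authors' adjusted p under 0.05 and 1 had no p. Of all peaks 78.7% were higher there, and 96.8% of those with a sham value under 1. The strongest, in the 3′ UTR at chr6:51462568-51464812, went from 1.32 in sham to 2.20 in ICH in the authors' deposited table. In acupuncture against ICH 8 Hnrnpa2b1 peaks were listed in the authors' deposited table, all lower with acupuncture, as were 81.3% of all peaks, and 5 of the 8 had an authors' adjusted p under 0.05. The largest of these in the 3′ UTR differed by -0.58 (1.61 against 2.20). In acupuncture against sham, 3 peaks were 0.19 to 0.29 higher with acupuncture in the authors' deposited table. The authors' lists hold values per group, so the ratio in ICH replicate 1 and in ICH replicate 2, whose input level of Hnrnpa2b1 was 69.9 and 36.7 FPKM, cannot be told apart in them.

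Fmr1 (ENSMUSG00000000838, chrX:68678541-68717963), the fragile X protein that represses translation at synapses and binds m6A transcripts, had 6.52, 7.72 and 7.14 FPKM in sham, 7.25 and 6.52 FPKM in ICH and 6.44 and 6.55 FPKM in acupuncture. The groups overlapped in all 4 comparisons. The log2 fold changes lay between -0.11 and -0.04, with limma adjusted p-values of 0.549 to 0.810. Its peak at the 3′ end had the largest difference of all member peaks in ICH against sham, 0.98 in the authors' deposited table (1.97 against 0.997, adjusted p 2.76e-07). Of all peaks there, 80.9% had a lower difference, and of those with a sham value under 1, 96.8% were higher in ICH. In acupuncture against ICH the Fmr1 peak at the 3′ end differed by -0.80 in the authors' deposited table (1.17 against 1.97), where 21.7% of all peaks had a lower difference. An exonic peak of 3417 bp between borders was 0.30 higher in ICH than in sham in the authors' deposited table (adjusted p 0.0178). A shorter exonic Fmr1 peak of 175 bp differed by -1.10 in acupuncture against ICH in the authors' deposited table (0.27 against 1.37, adjusted p 0.0024). It was the only member peak with a difference of at least 1 there, and 11.6% of all peaks had a lower difference.

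Prrc2a (ENSMUSG00000024393, chr17:35149076-35164897), a reader known from oligodendrocyte development, had 45.1, 46.0 and 46.0 FPKM in sham, 45.4 and 53.0 FPKM in ICH and 41.9 and 44.1 FPKM in acupuncture. Both acupuncture libraries lay below the other 5, by a small margin. The log2 fold change was -0.09 in acupuncture against sham (SE 0.101, limma adjusted p = 0.666) and -0.19 in acupuncture against ICH (SE 0.111, limma adjusted p = 0.338). The 4 oligodendrocyte markers summed to 718 to 923 FPKM in sham, 563 to 571 FPKM in ICH and 325 to 521 FPKM in acupuncture. Their part in the Prrc2a values was not tested. Its peak at the 3′ end, 350 bp long, was 0.52 higher in ICH than in sham (1.17 against 0.65) and differed by -0.38 in acupuncture against ICH in the authors' deposited tables. An exonic Prrc2a peak differed by -0.21 in acupuncture against sham in the authors' deposited table (0.56 against 0.77, adjusted p 0.0359).

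Counted over the 10 genes, the differential peaks followed the direction of their table. In the authors' deposited table of ICH against sham, 26 member peaks were listed in all 10 genes (77.8% of all tested genes had a peak there), of which 22 were higher in ICH (84.6%), beside 78.7% of all 23124 peaks. The median difference was 0.56 for the member peaks and 0.56 for all peaks in the authors' deposited table. For acupuncture against ICH the authors' deposited table held 22 member peaks in 8 genes (73.6% of all tested genes), of which 21 were lower with acupuncture, beside 81.3% of all 20948 peaks, with medians of -0.38 and -0.46. In the authors' deposited table of acupuncture against sham, 19 member peaks were listed in 9 genes (64.3% of all tested genes), of which 11 were higher with acupuncture, beside 58.2% of all 17242 peaks, with medians of 0.19 and 0.24. At an authors' adjusted p under 0.05 there were 24 of 26 member peaks in ICH against sham, beside 87.9% of all peaks with a p in the authors' deposited table, and 20 of the 24 were higher, beside 79.5%. For acupuncture against ICH it was 14 of 22, beside 74% in the authors' deposited table, with 1 of the 14 higher, beside 15.6%. For acupuncture against sham it was 14 of 19, beside 63.9% in the authors' deposited table, with 8 of the 14 higher, beside 59%. The 3 comparisons share groups and are not independent of each other.

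**Figure D4:**
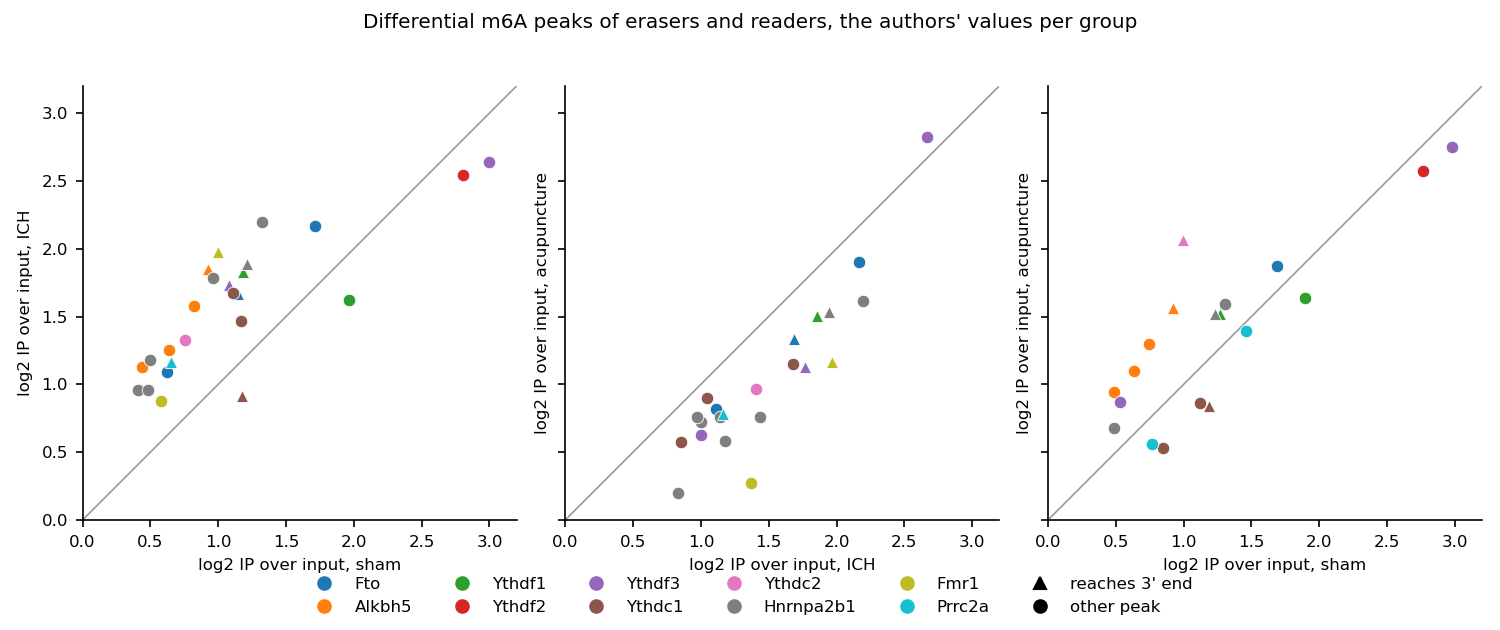
The authors' log2 IP over input of each differential member peak in the first group (vertical axis) against the second (horizontal axis), in 3 comparisons; triangles are peaks that reach the 3′ end of the gene, and points on the grey line would be equal in both groups. In ICH against sham 22 of 26 peaks lie above the line, and the long Ythdf1, Ythdf2 and Ythdf3 peaks, at 1.97 to 2.99 in sham, lie below it.

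The share of member peaks that were higher in ICH went down with their height in sham, and so did the share of all peaks in the authors' deposited table. This split was chosen after the values were seen, and the sham value is also part of the difference. Of the member peaks with a sham value under 1, 14 of 14 were higher in ICH, beside 96.8% of all such peaks in the authors' deposited table. At 1 to 2, 8 of 10 were higher, beside 71.4%. At 2 or more, 0 of 2 were higher, beside 37.4%. Of the member peaks at a 3′ end, meaning within 25 bp of the gene's 3′ border, 7 of 8 were higher in ICH, beside 85.2% of all such peaks in the authors' deposited table. The exception was Ythdc1. These shares lie near those of the whole table and are no result about erasers or readers.

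Other genes of the pathway were read from lists by role. Of 9 writers, among them Mettl3 (2.65 FPKM in sham, 2.53 FPKM in ICH and 3.001 FPKM in acupuncture), 0 passed limma's test in each of the 4 comparisons, and the smallest adjusted p was 0.266, for Cbll1, a subunit of the writer complex, in acupuncture against ICH. Cbll1 was at 8.41 FPKM in ICH replicate 2 and at 4.01 to 4.66 FPKM in the other 6 libraries. The writers with the smallest p elsewhere were Cbll1 in ICH against sham (log2 fold change 0.43, limma adjusted p = 0.268), Wtap in acupuncture against sham (0.13, adjusted p = 0.514) and Rbm15b in both haemorrhage groups against sham (-0.13, adjusted p = 0.483). Of 11 other m6A-binding proteins, 8 passed the filter and 0 passed limma's test. The smallest adjusted p was 0.0805, for Lrpprc, an organelle RNA-binding protein, in acupuncture against sham (log2 fold change -0.30). Lrpprc also had the smallest p of this list in acupuncture against ICH (-0.25, limma adjusted p = 0.237) and in both haemorrhage groups against sham (-0.18, limma adjusted p = 0.405). In ICH against sham it was Fxr2, a relative of Fmr1 (-0.53, limma adjusted p = 0.231), at 13.4 FPKM in ICH replicate 2 and 24.9 to 27.8 FPKM in the other libraries. The 3 that were filtered out were Igf2bp1, Igf2bp2 and Igf2bp3. Of 7 other AlkB homologues 0 passed, with a smallest adjusted p in limma of 0.0940 for Alkbh7, a mitochondrial protein, in ICH against sham (log2 fold change -0.63). Elsewhere the smallest p belonged to Alkbh2 in acupuncture against ICH (0.51, limma adjusted p = 0.199), Alkbh8 in acupuncture against sham (-0.26, limma adjusted p = 0.133) and Alkbh3 in both haemorrhage groups against sham (0.32, limma adjusted p = 0.295).

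Of the 10 partners of readers and erasers, 9 were tested, and Rida and Zfp217 had a limma adjusted p under 0.05 in some comparisons: 1 gene in ICH against sham, beside 5.68% of all tested genes, and 0 in acupuncture against ICH, beside 0.0366%. There were 2 in acupuncture against sham, beside 11.7%, and 2 in both haemorrhage groups against sham, beside 8.22%. These counts include Zfp217, which entered the test through the groups where it is high, and support nothing. In acupuncture against ICH the smallest p was that of Upf1, an RNA helicase of mRNA decay (0.26, limma adjusted p = 0.282). Rida, which bridges Ythdf2 to an RNA-cleaving complex, rose from 6.29, 5.65 and 5.73 FPKM in sham to 10.4 and 9.49 FPKM in ICH and 11.9 and 11.1 FPKM in acupuncture. All 4 haemorrhage libraries lay above sham, a separation that 23.5% of all tested genes showed in either direction. The 5 astrocyte markers separated the same groups, with a summed level of 202 to 224 FPKM in sham and 515 to 657 FPKM in the haemorrhage libraries, as did the microglia and macrophage markers. Their part in the Rida values was not tested. The log2 fold change of Rida was 0.67 in ICH against sham (SE 0.0937, limma adjusted p = 0.00814), 0.86 in acupuncture against sham (limma adjusted p = 0.00172) and 0.76 in both haemorrhage groups against sham (limma adjusted p = 0.00238). In ICH against sham it did not pass without sham replicate 3 (limma adjusted p = 0.0530). Zfp217, a zinc finger protein linked to Fto in fat cell differentiation, had 0.514, 0.771 and 0.571 FPKM in sham, 1.29 and 1.09 FPKM in ICH and 1.39 and 1.48 FPKM in acupuncture. With a mean of 1.01 FPKM it passed the filter only through the haemorrhage groups, so its values are a description. Zfp217 had a log2 fold change of 0.59 in acupuncture against sham (limma adjusted p = 0.0246) and of 0.51 in both haemorrhage groups against sham (limma adjusted p = 0.0273). Without the filter on low values neither passed (limma adjusted p = 0.0527 and 0.0540). Nor did they after quantile normalization (limma adjusted p = 0.0871 and 0.122) or without sham replicate 1 or 3, with limma adjusted p-values of 0.0981 to 0.137. The second also did not pass without sham replicate 2 (limma adjusted p = 0.0506).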

How the data were processed

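The authors deposited input RNA levels as FPKM per gene, a unit given in the file headers. The tools in the submitters' processing notes are HISAT2, StringTie, HOMER, edgeR and fastp, with no versions or roles, beside a human build, GRCh38. The deposited gene positions lay within 1000 bp of GRCm38.p6 for 96.3% of 25208 matched genes, so GRCm38 is given. The peak files hold the authors' log2 IP over input per group, and their p-value and adjusted p-value, per the file headers. The tool that called peaks was not given in the sources used here. Deposited peak starts counted from 0 and were moved by 1 bp. The table has 2 columns of values that match no sample used here, headed as replicate 3 of ICH and of EA and left out. Whether those 2 entered the peak files is not stated. The columns headed control and EA were taken as sham and acupuncture. Depth per library is unknown from FPKM.

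Genes whose mean over 7 input libraries reached 1 FPKM were tested on log2(FPKM + 1) in limma 3.58.1 (R 4.3.3) with a mean per group and a trend, two-sided, at a Benjamini-Hochberg adjusted p under 0.05 over 13666 genes. Fold changes on this scale understate changes of low genes. The members and lists were chosen with earlier results of these data known. The text names all 10 members, list genes past the test, or else the smallest p per list. Peaks are named by the strongest per list and by the authors' adjusted p. The fit was tested on simulated data. Alternatives changed the pseudocount, filter, scaling, trend, replicate block and samples. Tables and figures used Python 3.11.15, pandas 2.3.3, scipy 1.17.1 and matplotlib 3.10.9.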

Additional observations from a re-analysis of the deposited data

Results flagged for a closer look

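Among the 4 haemorrhage libraries, Hnrnpa2b1 had a lowest value of 36.7 FPKM in ICH replicate 2, with a gap to the next library of 0.892 of the whole range. Fmr1 had a highest value of 7.25 FPKM in ICH replicate 1, with a gap of 0.861 of the range. Both gaps are above the 95% limit of Dixon's test for 4 libraries. That limit assumes 4 values from 1 population, while these were 2 ICH and 2 acupuncture libraries, so how often chance gives such a gap is not known. The 10 members were examined, and the gaps of all other genes were not. ICH replicate 2 was the highest or the lowest of the 7 libraries for 60.6% of all tested genes.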

How the results depend on the processing

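With the replicate number as a block, the genes called were 351 in ICH against sham, 3 in acupuncture against ICH, 750 in acupuncture against sham and 463 in both haemorrhage groups against sham, in place of 776, 5, 1598 and 1123, and 0 members were called in each. The numbers share no stated source, and libraries of the same number correlated in their deviations from the group means at -0.0149 to 0.0941. Fits of the compared groups alone called 2 genes in acupuncture against ICH and 3207 in acupuncture against sham. Leaving out 1 library gave 392 to 5204 genes in ICH against sham, 2 to 5098 in acupuncture against ICH, 775 to 3197 in acupuncture against sham and 591 to 2104 in both haemorrhage groups against sham. It gave 0 to 4 members in ICH against sham and 0 to 6 in acupuncture against ICH, where the upper ends came without ICH replicate 1.

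Of 280 member fold changes with a library left out, 247 kept their sign and call, 23 not called changed sign and 10 became called. Of 270 under the other settings, 263 kept both and 7 not called changed sign. At an authors' adjusted p under 0.05 and a log2 of at least 1, the member peaks fell to 26 in sham, 38 in ICH and 22 in acupuncture. The median log2 over all peaks of these lists was 1.07, 1.24 and 1.12. Of the differential member peaks, 14 remained in acupuncture against ICH at an authors' adjusted p under 0.05, and 0, 1 and 1 had a difference of at least 1 in the 3 tables in the order above. At an overlap of 50% of both peaks in place of 1 bp, 27 regions in place of 29 were in all 3 lists, 12 in place of 6 in 2 lists and 30 in place of 17 in 1 list, of which 18 in place of 9 were in the ICH list and 6 in place of 4 in each of the others. For both haemorrhage groups the exact permutation test was run on members only, and 0 passed, since its smallest p here is 0.0571. The alternatives for Rida and Zfp217 were chosen after seeing the data. With the block, Rida had a limma adjusted p of 0.0717 in ICH against sham, and Zfp217 had 0.161 in acupuncture against sham and 0.207 in both haemorrhage groups against sham. FPKM gives no counts, so what depth limits is unknown.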
